A study of Mus musculus with 16 samples.

Results

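Timd2, Exoc3l2, Btbd18 and Riox1 are 4 mouse genes whose array signal was high in untreated two-cell embryos and low, at 28.9 or below, in embryos exposed to α-amanitin (the labels spell it α-amantin), an inhibitor of RNA polymerase II. They were chosen by the size of that fall, so their changes with amanitin are given as a description, with no test. They are 4 of the 18193 genes that the annotation names by a single symbol, and 6 of the 45037 probe sets of transcripts belong to them: 2 to Timd2, 2 to Exoc3l2, and 1 each to Btbd18 and Riox1. Of these, 5 passed the filter on low values. The exception was 1438639_x_at, the second probe set of Exoc3l2.

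Total RNA of two-cell embryos was measured on 16 arrays, 4 in each of 4 groups. BBB embryos carried a maternal pronucleus, a paternal pronucleus and an ooplasm that were all B6, and BCB embryos carried a C3H maternal pronucleus with a B6 paternal pronucleus in B6 ooplasm. Each kind was measured untreated and with amanitin, so that all 4 groups shared the B6 ooplasm and the B6 paternal pronucleus. The sources used here do not give the dose and duration of amanitin or the number and origin of the embryos on each array, and p-values below measure only the spread between these arrays, which may be technical.

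A newly fertilised mouse egg runs on RNA and protein stored by the oocyte. During the two-cell stage its own genome begins to be transcribed in a major wave while much of the maternal RNA is degraded, and amanitin blocks that new transcription. A transcript that an embryo makes at this stage and did not inherit would then be found in untreated and not in treated embryos. The 4 genes have unlike roles. Timd2 encodes TIM-2, a membrane protein of the T cell immunoglobulin and mucin family that in the mouse binds Semaphorin 4A and heavy-chain ferritin. Exoc3l2 encodes a relative of Exoc3, a subunit of the exocyst, the complex that tethers secretory vesicles to the plasma membrane. Btbd18 encodes a nuclear BTB domain protein that in mouse male germ cells is needed for transcription of many pachytene piRNA precursors. Riox1 encodes a JmjC oxygenase of the nucleolus that hydroxylates the ribosomal protein Rpl8.

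The stretch of 250 bases before each transcript start is shown because the leading probe sets of these genes all fell with treatment. The sequences are from RefSeq on the GRCm38.p6 build, and all 4 symbols matched, Timd2 with 2 starts. The start used for Btbd18 and both of those for Timd2 lie inside the annotated span of the gene, so those stretches are not wholly outside it. The stretch before Btbd18 also overlaps the span of its neighbour Ctnnd1, which ends at base 84658977. That before Riox1 lies within the span of its neighbour Heatr4. Capitals mark matches on either strand to the letters CCAAT or GGGCGG, and 2 of the GGGCGG matches before Exoc3l2 overlap each other.
Timd2, chr11:46707105-46707354, minus strand: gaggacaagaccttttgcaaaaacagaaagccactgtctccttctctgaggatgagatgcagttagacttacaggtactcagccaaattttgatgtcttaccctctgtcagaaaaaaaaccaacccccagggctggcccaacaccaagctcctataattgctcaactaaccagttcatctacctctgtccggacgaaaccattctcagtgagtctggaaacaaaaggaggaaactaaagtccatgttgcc
Timd2, chr11:46698831-46699080, minus strand: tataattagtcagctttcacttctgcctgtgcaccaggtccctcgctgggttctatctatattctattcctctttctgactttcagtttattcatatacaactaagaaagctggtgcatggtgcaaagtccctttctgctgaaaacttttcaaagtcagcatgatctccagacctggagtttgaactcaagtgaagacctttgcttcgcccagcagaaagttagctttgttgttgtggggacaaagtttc
Exoc3l2, chr7:19463037-19463286, plus strand: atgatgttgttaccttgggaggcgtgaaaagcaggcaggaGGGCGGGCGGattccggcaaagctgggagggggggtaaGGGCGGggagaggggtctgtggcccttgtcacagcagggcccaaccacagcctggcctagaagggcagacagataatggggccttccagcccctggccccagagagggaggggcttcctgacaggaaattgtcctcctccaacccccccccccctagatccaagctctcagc
Btbd18, chr2:84658829-84659078, plus strand: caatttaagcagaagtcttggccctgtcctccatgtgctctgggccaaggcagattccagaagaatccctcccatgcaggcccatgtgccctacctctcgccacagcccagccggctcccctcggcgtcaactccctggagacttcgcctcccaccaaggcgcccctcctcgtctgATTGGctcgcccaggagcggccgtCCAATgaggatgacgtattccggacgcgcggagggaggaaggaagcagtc
Riox1, chr12:83950358-83950607, plus strand: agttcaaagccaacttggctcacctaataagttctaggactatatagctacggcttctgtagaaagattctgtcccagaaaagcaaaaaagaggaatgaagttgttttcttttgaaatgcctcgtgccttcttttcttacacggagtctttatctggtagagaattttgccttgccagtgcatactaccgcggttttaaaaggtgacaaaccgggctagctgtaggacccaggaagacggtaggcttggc

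No motif searched was found before all 4 genes. The stretch before Btbd18 held 2 matches to CCAAT, and that before Exoc3l2 held 3 to GGGCGG. The stretches before Riox1 and both starts of Timd2 held neither. The letters TATAAA of the TATA box, searched in the same way on both strands, were in none of the 5 stretches. The core TAATCC bound by some homeodomain proteins was in none of them, and the same held for AAGGTCA, the core of an orphan nuclear receptor motif. Among 32851 stretches of the same length before RefSeq starts, 33.8% held CCAAT, 32.7% held GGGCGG, 12.4% held TATAAA, 6.25% held TAATCC and 4.08% held AAGGTCA. A match is a description of letters and no evidence that a factor binds there. Base composition was not shared either. The GC content was 62.8% before Btbd18 and 63.6% before Exoc3l2, above the median of 52.4% over all stretches. It was 44.0% before Riox1 and 45.6% and 42.4% before the starts of Timd2, below that median. The ratio of observed to expected CpG was above the median of 0.37 before Btbd18, at 0.62, and Riox1, at 0.58. It was below that median before Exoc3l2, at 0.20, and before the starts of Timd2, at 0.16 and 0.18.

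All intensities below are on the deposited linear scale, and log2 changes are on the scale log2(intensity + 16), which understates the fall of a gene whose treated signal is near 0. In bulk embryo RNA, fewer cells with a transcript and less of it per cell cannot be told apart. All 4 treated arrays lay below all 4 untreated arrays for 5 of the 6 probe sets in each kind of embryo. Among the 31953 probe sets tested, 29.1% did so in BBB and 27.8% in BCB. These arrays are the ones on which the genes were chosen, so nothing is read from that count.

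**Figure D1:**
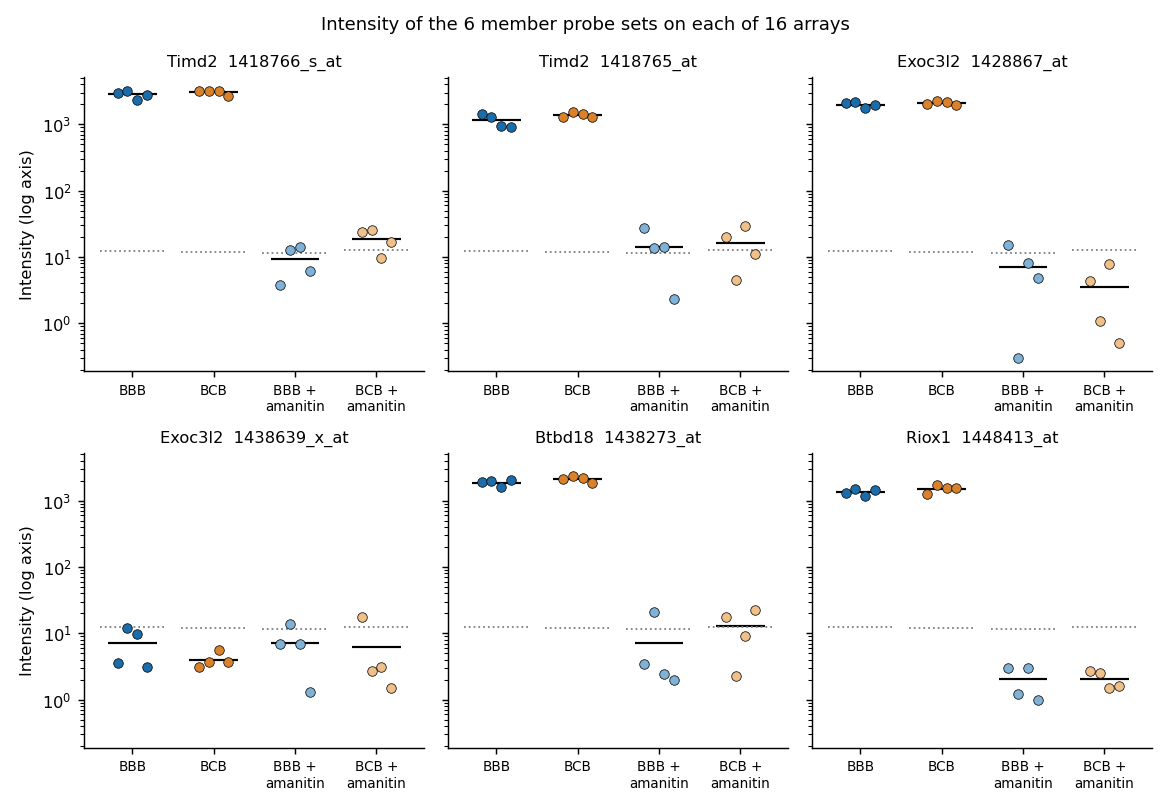
Intensity of the 6 probe sets on each of the 16 arrays, on a log axis; points are arrays, bars are group means and the dotted marks are the mean of the group's 40th percentiles. Untreated arrays stand between 908.7 and 3229.6 in the 5 probe sets that passed the filter and treated arrays at or below 28.9, while 1438639_x_at of Exoc3l2 stays at or below 17.9 in all 4 groups.

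The leading probe set of Timd2, 1418766_s_at, read 2979.2, 3179.4, 2309.9 and 2793.9 in the BBB embryos (mean 2816 ± 372, SD, n = 4) and 3187.5, 3209.4, 3229.6 and 2638.9 in the BCB embryos (mean 3066 ± 285, SD, n = 4). With amanitin it read 3.8, 12.6, 14.2 and 6.2 in BBB (mean 9.20 ± 4.99, SD, n = 4) and 23.9, 25.5, 9.7 and 16.8 in BCB (mean 19.0 ± 7.25, SD, n = 4). The treated and untreated arrays did not overlap, and the treated mean was 0.327% of the untreated mean in BBB and 0.619% in BCB. On the log2 scale the difference was -6.82 in BBB and -6.48 in BCB. On 2 of the 4 treated BBB arrays and 1 of the 4 treated BCB arrays the probe set was below the array's 40th percentile, the level used here as the limit of what was measured.

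The second probe set of Timd2, 1418765_at, read 1428.4, 1279.8, 954.3 and 908.7 in BBB and 1296.7, 1525.3, 1423.4 and 1309.7 in BCB. With amanitin it read 26.9, 13.5, 14.1 and 2.3 in BBB and 20.2, 4.5, 28.9 and 10.9 in BCB. The direction was the same as in the first probe set in both kinds, with no overlap between treated and untreated arrays. The log2 difference was smaller, at -5.30 in BBB and -5.51 in BCB, and 1.24% and 1.16% of the untreated mean was left. On the treated BCB arrays the leading probe set lay between the 34.8th and the 56.3rd percentile of its array. The treated signals of both probe sets are so low that the size of the fall depends on the number added before the log.

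The leading probe set of Exoc3l2, 1428867_at, read 2097.2, 2167.4, 1738.0 and 1933.6 in BBB (mean 1984 ± 191, SD, n = 4) and 2046.6, 2279.5, 2191.7 and 1969.8 in BCB (mean 2122 ± 140, SD, n = 4). With amanitin it read 15.1, 0.3, 8.0 and 4.9 in BBB (mean 7.08 ± 6.22, SD, n = 4) and 4.4, 1.1, 7.9 and 0.5 in BCB (mean 3.48 ± 3.41, SD, n = 4). No treated array reached any untreated array, and 0.357% of the untreated mean was left in BBB and 0.164% in BCB. The log2 difference was -6.47 in BBB and -6.79 in BCB.

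The second probe set of Exoc3l2 did not show this fall. In BBB, 1438639_x_at read 3.6, 11.9, 9.7 and 3.1 untreated and 7.0, 13.6, 7.0 and 1.3 with amanitin. In BCB it read 3.1, 3.7, 5.6 and 3.7 untreated and 17.9, 2.7, 3.1 and 1.5 with amanitin. It lay below the median of every one of the 16 arrays, did not pass the filter and was not tested, so the 2 probe sets of Exoc3l2 disagree and the statements on this gene rest on 1428867_at alone. The log2 difference of its group means was 0.00 in BBB and 0.10 in BCB.

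Btbd18 was measured by 1438273_at, which read 1899.8, 1957.6, 1589.9 and 2040.8 in BBB (mean 1872 ± 197, SD, n = 4) and 2129.7, 2336.1, 2169.7 and 1850.6 in BCB (mean 2122 ± 202, SD, n = 4). With amanitin it read 3.5, 20.7, 2.4 and 2.0 in BBB (mean 7.15 ± 9.06, SD, n = 4) and 17.9, 2.3, 9.2 and 22.6 in BCB (mean 13 ± 9.04, SD, n = 4). All treated arrays were at 22.6 or below, far from the untreated ones. The share of the untreated mean left was 0.382% in BBB and 0.613% in BCB, and the log2 difference was -6.41 and -6.26.

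Riox1 was measured by 1448413_at, which read 1311.6, 1482.1, 1194.3 and 1443.9 in BBB (mean 1358 ± 131, SD, n = 4) and 1250.3, 1738.8, 1557.1 and 1525.1 in BCB (mean 1518 ± 202, SD, n = 4). With amanitin it read 3.0, 1.2, 3.0 and 1.0 in BBB (mean 2.05 ± 1.10, SD, n = 4) and 2.7, 2.5, 1.5 and 1.6 in BCB (mean 2.08 ± 0.613, SD, n = 4). Riox1 was below the 40th percentile on each of the 8 treated arrays, and its treated values varied least among those of the leading probe sets. The share of the untreated mean left was 0.151% in BBB and 0.137% in BCB. The log2 difference was -6.25 in BBB and -6.40 in BCB.

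Because many treated values lie below that limit, each fall was also computed with every value below its array's 40th percentile raised to that percentile, which gives a bound. The untreated signal of Timd2 was then at least 99.2-fold higher than the treated signal in BBB and at least 87.2-fold higher in BCB. The bounds were 70.7-fold and 74.7-fold for Exoc3l2. They were 64.02-fold and 66.6-fold for Btbd18, and 49.9-fold and 53.3-fold for Riox1. A bound depends on how high the untreated signal stood above the limit, so the bounds do not rank the genes.

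The place of the 4 genes in the order of falls changed with the number added before the log. Among 15274 genes tested, with 16 added before the log, Timd2 ranked 2, Exoc3l2 4, Btbd18 7 and Riox1 9 in BBB. In BCB the ranks were 5 for Timd2, 3 for Exoc3l2, 10 for Btbd18 and 8 for Riox1. With 1 added, Riox1 ranked 2 in both kinds and Timd2 ranked 7 in BBB and 20 in BCB. With 64 added, Timd2 ranked 2 in both kinds and Riox1 ranked 23 in BBB and 19 in BCB. The order among the 4 is therefore not fixed by these data. In BBB, the genes that fell further than Riox1 besides the other members were the predicted gene Gm12789, Calcoco2, Ubtfl1, Ctsc and Rrs1, with log2 differences of -7.23, -6.57, -6.45, -6.42 and -6.36. Calcoco2 encodes an autophagy receptor, Ctsc a lysosomal protease and Rrs1 a factor of ribosome assembly. Just after Riox1, at -6.25, came the zinc finger gene Zfp707 at -6.20 and the predicted gene Gm4802 at -6.03.

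For comparison, genes whose untreated mean was at least 1000 numbered 1724 in BBB and 1763 in BCB. The median share of their untreated mean left was 112% in BBB and 110% in BCB. These medians rest on the authors' scaling of the arrays. On treated arrays the poly-A control signals stood 1.85 higher in BBB and 1.87 higher in BCB on the log2 scale. The members' own shares, all under 1% by the leading probe sets, are not ranked here, because many of the treated signals behind them lie below the limit.

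**Figure D2:**
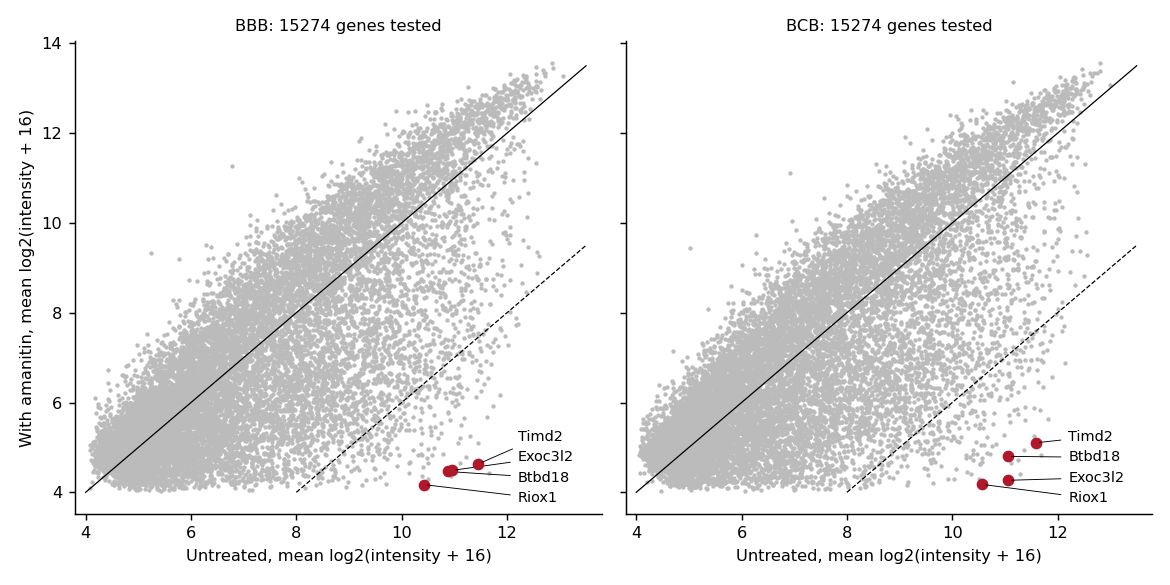
Mean log2(intensity + 16) of 15274 genes in untreated embryos (horizontal axis) against embryos with amanitin (vertical axis), for BBB on the left and BCB on the right; grey points are genes, red points the 4 members, the solid line marks no change and the dashed line a 16-fold fall. The members lie at the bottom right, with differences from -6.82 to -6.25 in BBB and from -6.79 to -6.26 in BCB.

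The maternal pronucleus was the other variable of the study. The difference between the kinds did not itself choose the genes, so it was tested, though high untreated signals were part of the choice. In untreated embryos the mean was higher in BCB than in BBB for all 5 probe sets tested, 2 of them of Timd2, but the arrays of the 2 kinds overlapped for each. How often this direction occurred over all probe sets was not counted, so nothing is read from it. Scaled to the poly-A controls, the difference of Exoc3l2 was -0.01. By limma, with Benjamini-Hochberg adjustment over 31953 probe sets, 0 of the 5 were called, against 0.613% of all probe sets. At such a share a call among 5 probe sets would be rare, so nothing is read from the lack of calls. The log2 difference, BCB minus BBB, was 0.13 for Timd2 by 1418766_s_at, with a 95% confidence interval of -0.20 to 0.45 and a limma adjusted p of 0.9999. By 1418765_at it was 0.30 (interval -0.17 to 0.77, limma adjusted p = 0.957). It was 0.10 for Exoc3l2 (interval -0.24 to 0.43), 0.18 for Btbd18 (interval -0.25 to 0.61) and 0.15 for Riox1 (interval -0.11 to 0.41). These intervals leave room for a difference of either sign. Single arrays moved the values: without the third BBB array that of 1418766_s_at was 0.04, that of Exoc3l2 0.04 and that of Btbd18 0.10, and that of Riox1 ran from 0.09 without the second BCB array to 0.24 without the first. Groups that did not overlap, in either direction, were seen for 6.32% of all probe sets.

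With amanitin, limma again called 0 of the 5 probe sets between BCB and BBB, against 0.113% of all probe sets. The largest difference was that of 1418766_s_at of Timd2, whose treated mean was 19.0 in BCB and 9.20 in BBB. The log2 difference was 0.47, with a 95% confidence interval of 0.14 to 0.80, a limma unadjusted p of 0.00686 and an adjusted p of 0.273. The 2 kinds overlapped, since the BCB array at 9.7 lay below the BBB arrays at 12.6 and 14.2. The second probe set of Timd2 gave a difference of 0.09 (interval -0.38 to 0.56, limma adjusted p = 0.928). The differences were -0.22 for Exoc3l2 (interval -0.56 to 0.11), 0.34 for Btbd18 (interval -0.10 to 0.77) and 0.00 for Riox1 (interval -0.26 to 0.26). No probe set separated the kinds without overlap, which 3.84% of all probe sets did. The genes were picked for a large fall, so low treated signals were part of the choice. That left little room for a difference between the kinds, and nothing is read from the lack of calls with amanitin. All of these treated signals are low, and there the size of a difference changes with the number added before the log and with single arrays. For 1418766_s_at it ranged from 0.18 with 64 added to 1.03 with 1 added. For Btbd18 it ranged from 0.11 to 0.98 over the same settings, and was 0.58 without the second treated BBB array, 0.54 without the second treated BCB array and 0.18 without the fourth. For Exoc3l2 it ran from -0.38 without the second treated BBB array to -0.06 without the first, and it was 0.02 with low values raised to the 40th percentile. For 1418765_at of Timd2 it ran from -0.13 without the fourth treated BBB array to 0.29 without the second treated BCB array.

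The difference between the kinds in their fall with amanitin was not tested, because the falls chose the genes. BCB minus BBB, it was 0.34 and -0.21 on the log2 scale for the probe sets 1418766_s_at and 1418765_at of Timd2, which differ in sign. It was -0.32 for Exoc3l2, 0.16 for Btbd18 and -0.15 for Riox1.

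**Figure D3:**
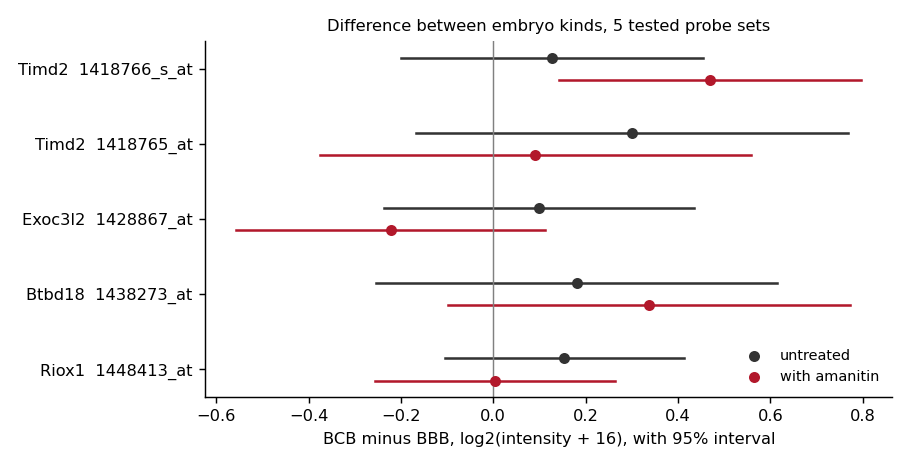
Difference between BCB and BBB embryos in log2(intensity + 16) for the 5 probe sets tested, untreated and with amanitin; points are limma estimates from 4 arrays a group and lines their 95% confidence intervals. The untreated differences run from 0.10 to 0.30 and those with amanitin from -0.22 to 0.47, and the interval of 1418766_s_at of Timd2 with amanitin is the one that does not include 0.

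On 2 of the 8 untreated arrays most of the leading probe sets stood low. The third BBB array gave the lowest BBB value of each leading probe set, with a median deviation from the group mean of -0.21 on the log2 scale. The fourth BCB array was the lowest of its group for Timd2, Exoc3l2 and Btbd18, with a median deviation of -0.15. On these arrays the median deviation of the other 214 genes that fell at least 16-fold in both kinds was -0.10 and -0.09, and that of all genes was 0.03 and 0.02. On the other untreated arrays the number of members below the group mean varied. It was 2 of the 4 on BBB array 4 and on BCB array 1, and 1 on BBB array 1. It was 0 on BBB array 2, BCB array 2 and BCB array 3, with median deviations of 0.13, 0.12 and 0.05. What set the 2 low arrays apart was not tested.

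Over the 16 arrays, the patterns most like each gene's leading probe set were those of other genes high in untreated and low in treated embryos. For Timd2 they were Rbm42, Srsf1 and Psma1, each with a Pearson r of 0.998. For Exoc3l2 they were Kdm5b, Chtop and Dancr, each at 0.999. Btbd18 was followed most closely by Pttg1ip at 0.998 and by Rbm42 and Txnl4a at 0.997. Riox1 was followed by Zfp707, Myorg and Srsf1, each at 0.999. The arrays fall into a treated and an untreated cluster, so such an r reflects little more than that split. An r above 0.99 was reached by 475 genes with Timd2, 586 with Exoc3l2, 287 with Btbd18 and 635 with Riox1, and r between the 4 members ran from 0.989 to 0.998.

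Of the nearest measured genes on either side of each member, in the order of RefSeq genes, the probe sets with the highest mean had log2 changes with amanitin from -0.35 to 1.57 on the authors' scaling of the arrays. These 8 neighbours moved with the scaling. Scaled to the poly-A controls, the changes in BBB and BCB were -0.58 and -0.55 for Havcr1, -1.42 in both for Mark4, -1.53 and -1.26 for Bloc1s3 and -1.24 and -1.71 for Ctnnd1, while Gm4926 stood at 0.06 and -0.39 and was not called. So scaled, Acot2 was at -1.39 and -1.04, Heatr4 at -0.84 and -1.22, and Selenoh at -1.90 in BCB, and limma called these 3 genes lower in both kinds. Beside Timd2, its relative Havcr1, which encodes TIM-1, stood at 167 ± 26.9 in BBB and 392 ± 43.5 with amanitin (SD, n = 4). The log2 change of Havcr1 was 1.16 in BBB (limma adjusted p = 1.09e-08) and 1.21 in BCB (limma adjusted p = 5.73e-09). The predicted gene Gm4926, on the other side of Timd2, rose by 1.57 in BBB and 1.17 in BCB (limma adjusted p = 7.10e-08 and 6.02e-06). Beside Exoc3l2, the kinase gene Mark4 rose by 0.37 and 0.38 (limma adjusted p = 0.00268 and 0.00221). Bloc1s3, a subunit of a complex that forms lysosome-related organelles, changed by 0.08 in BBB (limma adjusted p = 0.641) and by 0.39 in BCB (limma adjusted p = 0.0168), and the BCB call was lost without the first treated BCB array, at 0.0722.

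Beside Btbd18, the catenin gene Ctnnd1 rose in BBB by 0.52 (limma adjusted p = 0.000244), and its value in BCB was 0.07 (limma adjusted p = 0.604). A second tested probe set of Ctnnd1 stood at 0.07 in BBB, where it was not called higher, and at -0.30 in BCB. Selenoh, a nuclear selenoprotein gene, had a log2 change of -0.34 in BBB, with a limma adjusted p of 0.0496, and of -0.23 in BCB, at 0.178. That BBB call was kept in 9 of 28 alternative settings, the change was 0.02 after quantile normalization, and it was -0.84 in BBB and -0.96 in BCB with the hybridization controls for scale (limma adjusted p = 0.000124 and 2.18e-05). Riox1 lies within the annotated span of Heatr4, which was near the floor at 14.3 ± 8.42 in BBB and 13.7 ± 10.2 with amanitin (SD, n = 4) and on the authors' scaling did not pass the test in either kind. Acot2, an acyl-CoA thioesterase gene on the other side, stood at 53.3 ± 12.03 and 53.9 ± 7.98 (SD, n = 4) and did not pass it either, while a second probe set of Acot2 was lower in BBB, at -0.48, and stood at -0.43 in BCB.

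**Figure D4:**
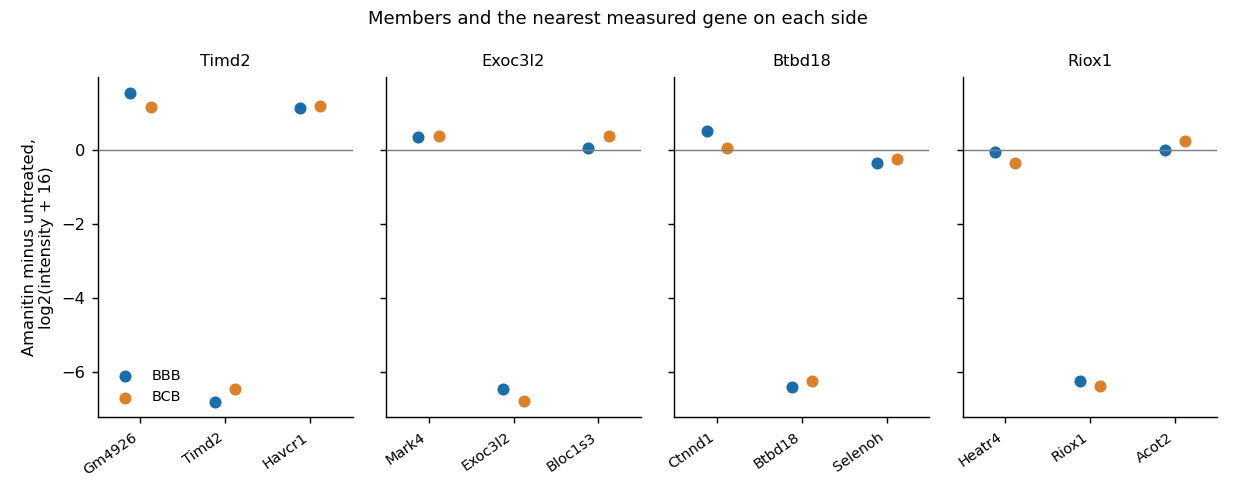
Log2 change with amanitin of each member and of its nearest measured gene on either side in RefSeq order, in BBB and BCB embryos. The members lie between -6.82 and -6.25, and the neighbours between -0.35 and 1.57 on the authors' scaling.

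The pathways around the 4 genes were read from lists of related genes, of which 64 genes were tested. With amanitin, 24 were lower in BBB and 26 in BCB, where 33.1% and 31.9% of all genes were lower, and 25 and 28 were higher, where 37.1% and 39.9% of all genes were higher. The medians over all genes were 0.11 in BBB and 0.17 in BCB. These directions rest on the authors' scaling of the arrays. The poly-A control signals were 1.85 higher on the log2 scale on treated than on untreated BBB arrays and 1.87 higher in BCB. Scaled to them, the medians of all genes were -1.16 and -1.12, and 51 of the listed genes were lower and 1 higher in each kind. A rise below is therefore relative to the other genes on the same arrays, whereas each fall named from the lists kept its direction under every scaling tried, with Sema4a losing its BBB call after quantile normalization.

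For Timd2, the list held the TIM family and the ligands of TIM-2, and 6 of its 8 genes were tested. In each kind 4 were higher and 2 lower, with a median of 0.59 in BBB and 0.71 in BCB. Timd4, the family member that binds phosphatidylserine on dying cells, went from 161 ± 31.4 to 712 ± 56.5 in BBB (SD, n = 4), a log2 change of 2.05 there and 1.81 in BCB (limma adjusted p = 2.35e-11 and 2.25e-10). Scaled to the poly-A controls its change was 0.30 and 0.04 and was not called. Fth1, which encodes heavy-chain ferritin, went from 2756 ± 166 to 4066 ± 126 in BBB, a change of 0.56, and by 0.59 in BCB (limma adjusted p = 3.96e-08 and 1.70e-08), but its change was 0.01 in BBB after quantile normalization, -0.21 in BCB with the hybridization controls for scale, and -1.28 and -1.27 scaled to the poly-A controls. Sema4a, which encodes Semaphorin 4A, was low throughout, at 44.2 ± 7.41 and 23.6 ± 1.42 in BBB, with a change of -0.60 (limma adjusted p = 0.00949), while another of its probe sets rose by 0.48.

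For Exoc3l2, all 14 genes listed as exocyst subunits, Exoc3-like genes and Ral GTPases were tested. In BBB 7 were higher and 2 lower, with a median of 0.44, and in BCB 8 were higher and 2 lower, with a median of 0.65. Exoc8, an exocyst subunit that binds Ral GTPases, fell most, from 324 ± 59.3 to 6.08 ± 2.45 in BBB (SD, n = 4), a log2 change of -3.93, and of -3.85 in BCB (limma adjusted p = 3.23e-14 and 4.91e-14). A second probe set of Exoc8 also fell, by 1.53 in BBB. Exoc4, a core subunit, went from 499 ± 57.9 to 2089 ± 143, a change of 2.03 in BBB and 1.93 in BCB (limma adjusted p = 8.57e-14 and 2.18e-13). Scaled to the poly-A controls Exoc4 changed by 0.22 and 0.10 and was not called.

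For Btbd18, 17 genes of the piRNA pathway and its transcription factors were tested, and 7 were higher and 8 lower in each kind, with medians of -0.02 in BBB and -0.11 in BCB. Tcfl5, a transcription factor of spermatocytes, fell most in BBB, from 517 ± 77.0 to 22.7 ± 8.84 (SD, n = 4), a log2 change of -3.80, and of -3.89 in BCB (limma adjusted p = 5.91e-16 and 3.74e-16). Piwil1, which binds piRNAs, went from 86.3 ± 18.1 to 348 ± 19.9, a change of 1.85 and 1.87 (limma adjusted p = 1.49e-11 and 1.26e-11). Its change was 0.17 in both kinds, not called, when scaled to the poly-A controls. Gtsf1, a cofactor of PIWI proteins, changed by 0.82 and 0.50 (limma adjusted p = 1.63e-06 and 0.000772), but by -0.99 and -1.33 scaled to those controls and by -0.29 in BCB with the hybridization controls for scale. Of the BTBD family, 9 genes were tested, and 2 were lower in each kind, with 3 higher in BBB and 5 in BCB. Their medians were 0.15 and 0.26. Btbd19 fell from 255 ± 61.2 to 52.3 ± 21.5 in BBB, a change of -2.02, and of -1.68 in BCB (limma adjusted p = 6.60e-09 and 1.41e-07). Btbd2 rose most, from 590 ± 102 to 3817 ± 406, and its changes of 2.67 and 2.57 were still called, at 0.84 and 0.73, when scaled to the poly-A controls. Btbd10 had a change of 0.09 in BBB (limma adjusted p = 0.234) and 0.25 in BCB (limma adjusted p = 0.00242). It was below 0 in both kinds after quantile normalization, at -0.43 and -0.26, and scaled to either set of controls.

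For Riox1, 18 genes were tested that encode the ribosomal oxygenases, their ribosomal substrates or other JmjC enzymes. More of them were lower than higher, 10 against 4 in BBB and 12 against 4 in BCB, with medians of -0.73 and -0.79. Over all genes 33.1% were lower and 37.1% higher in BBB, and 31.9% and 39.9% in BCB. Whether the list differs from all genes was not tested. Riox2, the other nucleolar ribosomal oxygenase, fell from 572 ± 150 to 25.95 ± 11.9 in BBB (SD, n = 4), a log2 change of -3.82, and of -3.66 in BCB (limma adjusted p = 9.35e-14 and 2.11e-13). Its 4 probe sets were all lower in BBB, from -3.82 to -0.59. Rpl8, whose protein Riox1 hydroxylates, fell from 1518 ± 30.4 to 206 ± 16.5, a change of -2.79 and -2.76 (limma adjusted p = 1.75e-17 and 1.96e-17). Kdm2b, a histone demethylase, had a change of -0.60 and -0.66 (limma adjusted p = 5.98e-07 and 1.40e-07). Phf2, another JmjC demethylase, rose by 1.60 and 1.51, and stood at -0.15 and -0.26 scaled to the poly-A controls.

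**Figure D5:**
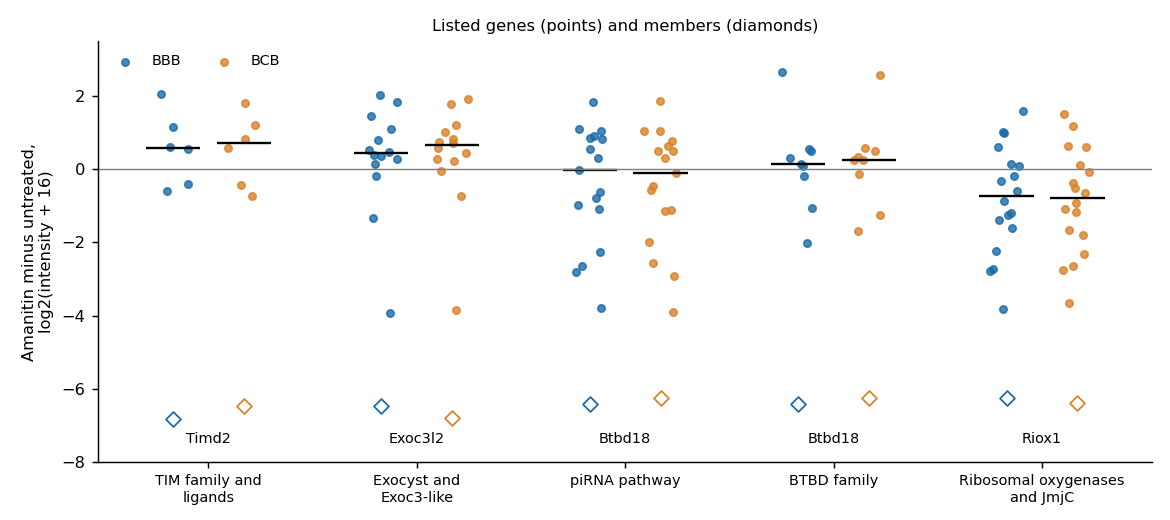
Log2 change with amanitin, in log2(intensity + 16), of the tested genes of each list (points, with bars at the medians) in BBB and BCB embryos, with the member each list belongs to as an open diamond. The members lie between -6.82 and -6.25, and the listed genes between -3.93 and 2.67.

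The embryo's stage and other possible cell types were read from marker genes. The summed signal of 9 genes of the two-cell embryo was 13938 to 15253 on untreated arrays and 1221 to 1739 on treated arrays. One of the 9, Duxf3, was higher in both kinds on the authors' scaling, by 0.94 and 1.01 on the log2 scale (limma adjusted p = 1.02e-05 and 3.59e-06), while the other 8 were lower. The summed signal of 9 oocyte genes was 12129 to 14368 and 22612 to 25951. In each kind 7 of these 9 were called higher and 2 were not called. All sums here are on the authors' scaling. The 4 blood cell genes summed to 26.6 to 76.1 untreated and 49.1 to 102.6 with amanitin, and Ptprc, which marks leukocytes, was near the floor at 2.58 ± 1.77 in BBB (SD, n = 4). Of 10 cumulus and granulosa genes, Amhr2 fell from 2086 ± 211 to 58.9 ± 17.3 in BBB (SD, n = 4), and the other 9 summed to 170 to 206 in BBB, 183 to 217 in BCB, 303 to 377 in BBB with amanitin and 358 to 383 in BCB with amanitin. The part of other cells in the members' signals was not tested.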

How the data were processed

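The authors deposited linear intensities, given to 1 decimal, of 45037 probe sets of transcripts and 64 controls on 16 one-colour Affymetrix arrays. Per the labels, total RNA came from a Picopure extraction and carried biotin from an ENZO kit. The software and scaling behind the values: not given in the sources used here. Scanner files were not used here. The number of arrays limits the precision. Array medians ran from 16.9 to 21.6 and 75th percentiles from 84.1 to 120.4.

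Probe sets were named from the platform annotation: 34945 have 1 symbol, 932 several and 9160 none. Groups came from the labels. A probe set was tested if 4 or more arrays had it at no less than their own 40th percentile, which left 31953, of 15274 genes. A gene was read from its probe set with the highest mean over the 16 arrays. log2(intensity + 16) was fitted over all 4 groups with limma 3.58.1 in R 4.3.3, with an intensity trend and Benjamini-Hochberg adjustment. Calls are adjusted p under 0.05. The fit was tested on simulated data. A fall with amanitin, and the difference between kinds in that fall, are not tested for the members, which were chosen by it. The members and the lists were chosen with earlier results of these data known.

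Named were the members with all their probe sets; per member the 3 most correlated genes; genes above the lowest member by fall in BBB and the 2 just after it; neighbours in RefSeq order; and per list the largest rise, the largest fall and the highest BBB mean, with Fth1, Sema4a, Riox2 and Rpl8. Amhr2, Duxf3 and Ptprc were chosen after their values were seen. Same-numbered arrays did not deviate together (24 pairs, r from -0.09 to 0.11), and the main fit did not pair them. Whether they shared an origin is not given in the sources used here, and these r cannot decide it. Alternatives were 12 settings and leaving out each of the 16 arrays.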

Additional observations from a re-analysis of the deposited data

Results flagged for a closer look

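In 24 sets of 4 arrays, 6 probe sets in each of 4 groups, the gap between the farthest array and its nearest neighbour was divided by the range on the log2 scale, and 3 exceeded Dixon's 95% critical value. Chance gives about 1 in 20. For 1418766_s_at of Timd2 in untreated BCB the ratio was 0.935, from the fourth array at 2638.9 against 3187.5 to 3229.6 on the others. The BCB minus BBB difference of 0.13 was 0.20 without that array and 0.04 without the third BBB array, and limma called neither. For Btbd18 in BBB with amanitin it was 0.888, from the second array at 20.7 against 2.0 to 3.5. For 1438639_x_at of Exoc3l2 in BCB with amanitin it was 0.868, from the first array at 17.9 against 1.5 to 3.1, all near the floor. What set these arrays apart was not tested.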

How the results depend on the processing

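The median fall of the 4 members was -6.44 (log2) in each kind of embryo. With 1 added before the log it was -8.40 in BBB and -8.27 in BCB, and with 64 added it was -4.81 and -4.92. Scaled to the poly-A controls it was -7.60 in each, and with the hybridization controls for scale it was -6.96 in BCB. With the other probe set of Timd2 and Exoc3l2, a choice made after seeing the data, it was -5.77 and -5.88. Leaving out 1 array at a time gave -6.51 to -6.38 in BBB and -6.49 to -6.36 in BCB. No alternative called a member probe set between BCB and BBB, with limma adjusted p over the 28 settings from 0.376 to 1 untreated and from 0.157 to 0.9998 with amanitin. Over all probe sets these comparisons called 196 untreated and 36 with amanitin. The counts ran from 90 with 1 added to 416 with 64 added untreated, and, with amanitin, from 1 with only the 2 groups compared or with either set of controls for scale to 104 without the fourth treated BCB array. Scaled to the poly-A controls, 51 of the 64 listed genes were lower in BBB and 51 in BCB, against 24 and 26. With the replicate number as a block the medians were -6.44 and -6.44, 0 member probe sets were called, and 23 and 25 listed genes were lower. Each of the 4 members had treated signals below the 40th percentile of an array, which limits those values to bounds. For Riox1 this held on all 4 treated arrays of each kind. For 1418766_s_at of Timd2 it held on 2 of 4 in BBB and 1 of 4 in BCB.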
